A study of Mus musculus with 8 samples.

Results

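The genes described here are the enzymes and cofactors that turn cholesterol into sex steroids. They were chosen by name and comprise Star, Cyp11a1, Cyp17a1, Cyp19a1, Hsd3b1, Hsd3b6, Hsd17b3, Fdx1, Fdxr and Por, which are 10 of the 46078 genes counted in the series. Transcripts were measured by strand-specific RNA-seq of polyadenylated RNA in 8 mouse libraries, with 2 in each of 4 groups. The first group, tcESCs, were XY embryonic stem cells (ESCs) of C57BL/6 background that carry the tesco-cfp reporter, in which a testis-specific enhancer of Sox9 drives cyan fluorescent protein. The second, tc;Sf1ESCs, were a single G418-selected clone of the same line with a constitutively expressed Sf1 (Nr5a1) transgene. Sertoli cell-like cells (SCLCs) were CFP-positive cells sorted on day 12 from cultures of tc;Sf1ESCs. The cultures were treated with CHIR99021 and TTNPB, with Y27632 listed by the paper as optional, and then with CHIR99021, BMP7 and FGF9. The SCLCs thus also carried the reporter and the transgene. The fourth group, todPGCLCs, were GFP-positive primordial germ cell-like cells sorted on day 6 from testicular organoids. The organoids were co-cultures, in medium with CHIR99021, of Prdm1-gfp epiblast-like cells with differentiated cells made from tc;Sf1ESCs. Cells with the Sf1 transgene were thus in the culture that was sorted. The XY Prdm1-gfp line of todPGCLCs differs from that of the other 3 groups, so line, culture and cell type cannot be told apart in any comparison with todPGCLCs. ESCs were kept without feeders or serum in 2iLIF medium.

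Steroid synthesis starts when the carrier STAR delivers cholesterol to the inner mitochondrial membrane. There CYP11A1 cleaves the side chain to give pregnenolone, with electrons that the reductase FDXR passes to the ferredoxin FDX1. The 3-beta-hydroxysteroid dehydrogenases HSD3B1 and HSD3B6 and the microsomal enzyme CYP17A1, which draws on the reductase POR, then lead to androstenedione. HSD17B3 reduces androstenedione to testosterone and CYP19A1 (aromatase) makes oestrogen. In the testis these steps are known mainly from Leydig cells, while HSD17B3 is made by Sertoli cells in the fetal mouse. FDX1, FDXR and POR also serve other enzymes in many cell types. SF1 is a nuclear receptor that is known to activate several of these genes through sites of the form CAAGGNCA.

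Star lies on chromosome 8 (25806555 to 25815982, GRCm38), Cyp11a1, Cyp19a1 and Fdx1 on chromosome 9, Cyp17a1 on chromosome 19 (46667165 to 46673172), Hsd3b1 and Hsd3b6 beside each other on chromosome 3 (98852194 to 98859794 and 98805504 to 98814443), Hsd17b3 on chromosome 13, Fdxr on chromosome 11 (115268024 to 115277050) and Por on chromosome 5 (135670033 to 135735326). The RefSeq promoter table (GRCm38.p6) held 11 start sites for 8 of the genes, with Star and Cyp17a1 not among them. No 250-base stretch upstream of these 11 sites held CAAGGNCA on either strand, a motif found in 5.528% of the 32851 stretches in the table. The shorter CAAGGNC, contained in the longer motif, was found in 3 of the 11, upstream of Fdx1, Fdxr and 1 of the starts of Cyp19a1, against 15.03% of all stretches. A match of letters is not a bound site, and not all the starts in the table are those of the GENCODE genes. Both starts of Cyp11a1 were 8387 and 8541 bases from the GENCODE start, that of Por 19112 bases, and those of Cyp19a1 54, 39196 and 74367 bases, while the other 5 were within 81 bases. The absence of the longer motif therefore holds for these windows and not for every promoter of the genes. The stretches upstream of Fdx1 and Fdxr are shown because these partners of Cyp11a1 differed between SCLCs and ESCs in opposite directions. The capitals mark the reverse complement of CAAGGNC, at 124 to 118 bases before the start of Fdx1 (chr9:51963603-51963852, minus strand) and 141 to 135 bases before that of Fdxr (chr11:115276970-115277219, minus strand).
Fdx1: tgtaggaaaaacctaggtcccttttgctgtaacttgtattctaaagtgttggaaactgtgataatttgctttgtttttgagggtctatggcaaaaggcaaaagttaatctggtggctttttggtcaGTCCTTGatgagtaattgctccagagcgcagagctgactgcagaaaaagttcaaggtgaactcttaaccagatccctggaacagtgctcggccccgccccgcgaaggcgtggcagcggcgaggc
Fdxr: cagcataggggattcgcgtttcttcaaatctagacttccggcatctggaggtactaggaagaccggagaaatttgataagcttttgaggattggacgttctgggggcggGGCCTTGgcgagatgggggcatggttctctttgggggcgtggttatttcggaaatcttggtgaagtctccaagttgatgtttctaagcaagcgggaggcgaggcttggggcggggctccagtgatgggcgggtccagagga

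Hsd3b1 and Hsd3b6 are near copies, which bears on how their reads could be counted. Their coding sequences of 1119 bases were 89.99% identical, with a longest shared run of 72 bases. Bases 211 to 360 of both coding sequences (GENCODE transcripts, GRCm38, read along the minus strand of the genome) hold that run and are shown with their 8 differences in capitals.
Hsd3b1: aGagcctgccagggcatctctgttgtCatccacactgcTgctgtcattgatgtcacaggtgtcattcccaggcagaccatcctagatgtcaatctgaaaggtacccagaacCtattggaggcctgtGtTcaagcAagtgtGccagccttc
Hsd3b6: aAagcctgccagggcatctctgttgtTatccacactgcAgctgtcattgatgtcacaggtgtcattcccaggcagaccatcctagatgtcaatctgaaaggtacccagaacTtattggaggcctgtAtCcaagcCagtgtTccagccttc
Of all 50-base windows in the exons, 4.862% for Hsd3b1 and 15.6% for Hsd3b6 occurred also in another gene. A read pair with both mates within such windows cannot be assigned to 1 copy. For Star, Cyp17a1, Cyp19a1, Hsd17b3, Fdx1, Fdxr and Por no window was shared with another gene, and for Cyp11a1 2.061% were, mostly with the lincRNA Gm17322 that overlaps 145 of its exon bases on the same strand.

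Reads on genes ranged from 25411033 to 30680191 per library, at which 3 counts correspond to 0.0981 to 0.120 CPM (counts scaled to a common library size, here with TMM factors). This level of 3 counts is used below as the floor. It and the counts cover counting error only, since the libraries have no molecular identifiers. TMM is the trimmed mean of M values, and levels of different genes are compared only as RPKM (CPM per kilobase of exon). Counts of replicates differed beyond sampling noise in each group, most in SCLCs, where chi-square per degree of freedom was 27.6 against 1.41 to 8.94 in the other groups. The labels do not say that replicates came from separate cultures, so p-values measure the spread between these libraries, which may be technical. The paper states that its experiments were replicated biologically, without detail for these libraries. As a check of the labels, Nr5a1 had 1 and 0 counts in tcESCs, 52 and 30 in tc;Sf1ESCs, 341 and 535 in SCLCs and 6 and 5 in todPGCLCs. Reads of the transgene and of the endogenous gene cannot be told apart. Set against the 1 count of tcESCs, the scaled ratio was 85.5 in tc;Sf1ESCs (95% exact counting interval 14.9 to 3417) and 911 in SCLCs (163 to 36007).

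The 10 genes fell into 3 ranges of level. Por, Fdxr, Fdx1 and Star were measured in every library, at 14.5 to 29.5, 5.30 to 10.6, 2.71 to 4.59 and 1.42 to 4.26 RPKM. Cyp17a1 and Cyp11a1 exceeded 10 counts in SCLC libraries only, Cyp17a1 in both and Cyp11a1 in 1. Cyp19a1, Hsd3b1, Hsd3b6 and Hsd17b3 had at most 5 counts in any library. The plot of levels by library shows these ranges.

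**Figure D1:**
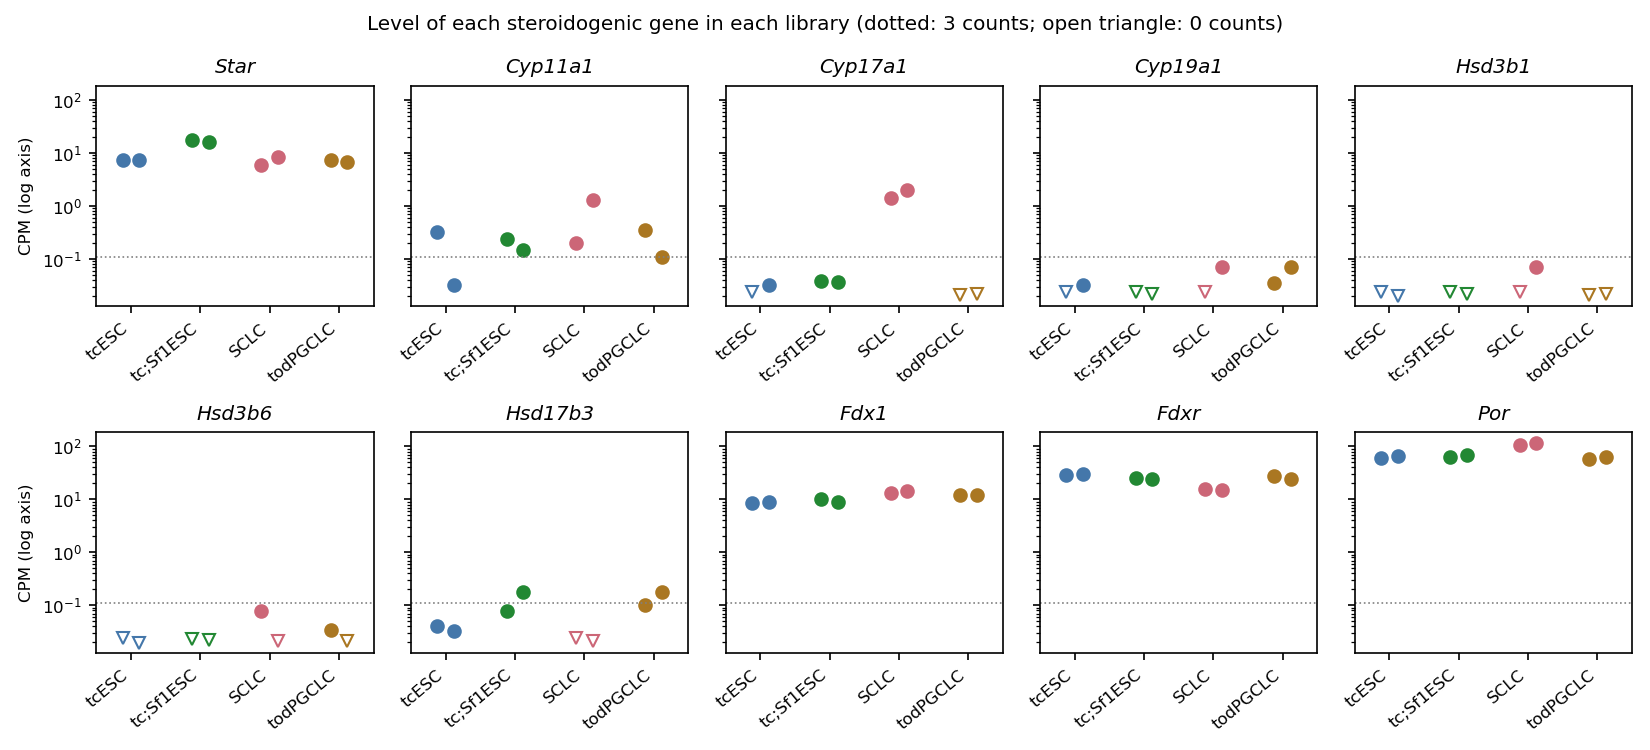
Level of each of the 10 genes in each of the 8 libraries, in TMM-scaled CPM on a log axis. Filled circles are libraries with counts, open triangles are libraries with 0 counts drawn below the dotted line, which marks the mean CPM of 3 counts. Cyp17a1 is above that line in the 2 SCLC libraries only, and Por is highest and Fdxr lowest in SCLCs.

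Star, the cholesterol carrier, was higher in tc;Sf1ESCs than in any other group. It had 183 and 226 counts in tcESCs (7.33 and 7.39 CPM), 452 and 446 in tc;Sf1ESCs (17.5 and 16.2 CPM), 148 and 233 in SCLCs (5.85 and 8.28 CPM) and 212 and 191 in todPGCLCs (7.26 and 6.81 CPM). The libraries of tc;Sf1ESCs lay above all others, while those of the remaining groups lay between 5.85 and 8.28 CPM, with both tcESC libraries inside the range of the SCLCs. The group means were 1.79 ± 0.0113 RPKM in tcESCs, 4.10 ± 0.217 in tc;Sf1ESCs, 1.72 ± 0.419 in SCLCs and 1.71 ± 0.0773 in todPGCLCs (SD, n = 2).

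In the comparison of tc;Sf1ESCs with tcESCs, which addresses what the transgene clone changes before differentiation, 6 of the 10 genes had enough counts to be tested. Among them, Cyp17a1 and Cyp11a1 passed the minimum only through the SCLC libraries, which are not in this comparison. Their counts in the ESC libraries were at most 1 and 8, so the shares of the 6 given here include genes with little to compare. Star was the 1 gene called, meaning over 2-fold and an adjusted p under 0.05 (edgeR quasi-likelihood test, Benjamini-Hochberg over all genes), where 11.7% of the 16481 genes tested were called. It was 2.32-fold higher, with a log2 difference of 1.22 (SE 0.183, adjusted p = 0.00287). Without the 2-fold requirement Star was again the 1 gene of the 6 with an adjusted p under 0.05, against 32.7% of all genes. Its lower bound of 0.78 log2 includes changes under 2-fold, and in edgeR's test against a 2-fold change it was not called (adjusted p = 0.534).

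Genes on the chromosome of Star were higher as a group in the tc;Sf1ESC clone. The median log2 difference of the 864 genes tested on chromosome 8 was 0.47 (quartiles 0.16 and 0.76), beside 0.00 over all genes. Star was 0.74 above the chromosome's median, and 99 of the 864 genes, or 11.5%, had a larger difference. Whether the shift of chromosome 8 contributes to the level of Star was not tested. The histogram of chromosome 8 shows where Star falls.

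**Figure D2:**
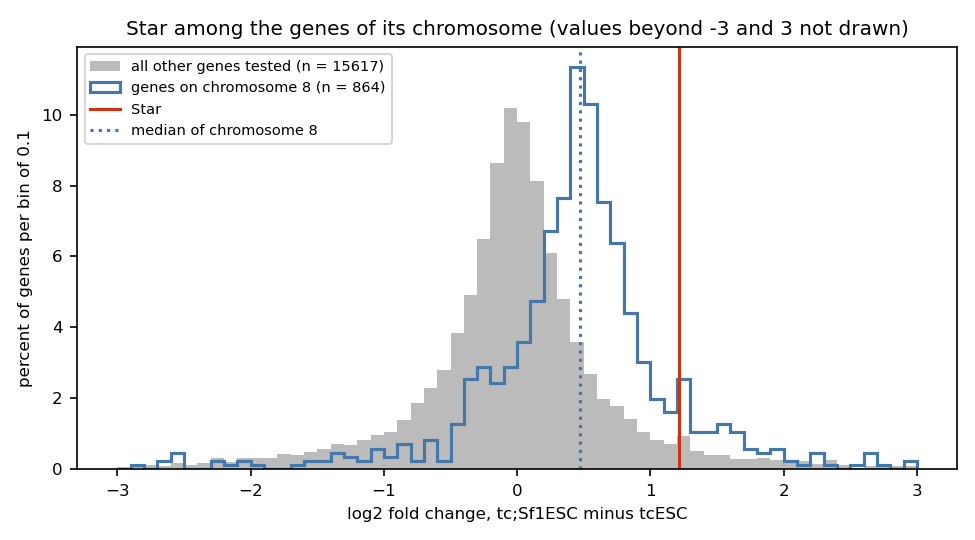
Distribution of log2 differences between tc;Sf1ESCs and tcESCs for the 864 genes tested on chromosome 8 (blue outline) and for all other genes (grey), as percent of genes per bin of 0.1, with values beyond -3 and 3 not drawn. The dotted line is the chromosome 8 median of 0.47 and the red line is Star at 1.22, to the right of most genes of its chromosome.

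In SCLCs, Star was lower than in the tc;Sf1ESCs they were made from and close to the level of tcESCs. The fall from tc;Sf1ESCs was 2.38-fold, with a log2 difference of -1.25 (SE 0.184, adjusted p = 0.000623), and the chromosome 8 median in this comparison was 0.04. In edgeR's test against a 2-fold change this fall of Star was not called (adjusted p = 0.0995). Without SCLC replicate 1 the log2 difference was -0.998, just under 2-fold, and the call was lost. Between SCLCs and tcESCs the log2 difference of Star was -0.03 (95% interval -0.48 to 0.41, edgeR adjusted p = 0.883). The median of chromosome 8 was 0.58 there. todPGCLCs differed from tcESCs by -0.04 (95% interval -0.46 to 0.38) and SCLCs from todPGCLCs by 0.00 (-0.41 to 0.42).

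Cyp11a1, which makes pregnenolone, was near the floor in all groups but for 1 library. It had 8 and 1 counts in tcESCs, 6 and 4 in tc;Sf1ESCs, 5 and 37 in SCLCs and 10 and 3 in todPGCLCs. SCLC replicate 2 stood at 1.32 CPM and SCLC replicate 1 at 0.198 CPM, inside the range of 0.0327 to 0.342 CPM of the other groups. Cyp11a1 passed the minimum count for testing only through the SCLC libraries, as Cyp17a1 did, so its fitted values are given as a description. The log2 difference of SCLCs from tcESCs was 2.22 (SE 1.04, edgeR adjusted p = 0.0919), and that from tc;Sf1ESCs 2.02 (SE 1.03, adjusted p = 0.115). Neither was called. Without SCLC replicate 1 the log2 differences were 3.03 and 2.81 and past both limits, but that fit has 1 SCLC library, which is assumed to vary as the other groups do and whose 37 counts bring the gene over the minimum for testing. The lincRNA Gm17322, which overlaps it, had between 0 and 82 counts.

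Fdx1 and Fdxr, which carry electrons to CYP11A1, went in opposite directions in SCLCs. Fdx1 had 210 and 276 counts in tcESCs (8.41 and 9.03 CPM), 263 and 246 in tc;Sf1ESCs (10.2 and 8.96 CPM), 330 and 401 in SCLCs (13.0 and 14.3 CPM) and 357 and 346 in todPGCLCs (12.2 and 12.3 CPM). Both sorted groups lay above both ESC groups. Fdxr had 730 and 908 counts in tcESCs (29.2 and 29.7 CPM), 650 and 670 in tc;Sf1ESCs (25.2 and 24.4 CPM), 396 and 418 in SCLCs (15.6 and 14.9 CPM) and 818 and 683 in todPGCLCs (28.0 and 24.4 CPM). The SCLC libraries were the lowest, with a gap to all the others, and the remaining 3 groups lay between 24.4 and 29.7 CPM.

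Against tcESCs, Fdx1 rose in SCLCs by 0.67 on the log2 scale (1.59-fold, SE 0.138, edgeR adjusted p = 0.00349) and Fdxr fell by 0.93 (1.90-fold, SE 0.0883, adjusted p = 6.45e-05). Against tc;Sf1ESCs the differences were 0.51 for Fdx1 (SE 0.137, adjusted p = 0.0115) and -0.70 for Fdxr (SE 0.0887, adjusted p = 0.000287). All were under 2-fold and so are not among the calls. The ratio of Fdx1 to Fdxr in RPKM was 0.267 ± 0.0104 in tcESCs, 0.349 ± 0.0239 in tc;Sf1ESCs, 0.810 ± 0.0805 in SCLCs and 0.426 ± 0.0448 in todPGCLCs (SD, n = 2). Fdxr transcripts thus exceeded Fdx1 transcripts in each of the 8 libraries, with the ratio highest in SCLCs at 0.753 and 0.867.

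In todPGCLCs, Fdx1 was 0.52 log2 above tcESCs (1.43-fold, SE 0.135, adjusted p = 0.00925). Fdxr differed there by -0.15 (95% interval -0.37 to 0.08, edgeR adjusted p = 0.229), while the 1344 genes tested on its chromosome, 11, had a median of 0.52. From todPGCLCs to SCLCs, Fdxr fell by 0.79 (SE 0.102, adjusted p = 0.000141) and the chromosome's median was -0.53. The part that the shift of chromosome 11 has in these values was not tested. Fdx1 differed between the sorted groups by 0.15 (95% interval -0.15 to 0.45).

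Hsd3b1 and Hsd3b6, which make the step from pregnenolone to progesterone, were not detected above the floor. Hsd3b1 had 2 counts in SCLC replicate 2 and 0 in the other 7 libraries. Hsd3b6 had 2 counts in SCLC replicate 1, 1 in todPGCLC replicate 1 and 0 in the other 6. A count of 0 allows up to 0.120 CPM in the shallowest library, tcESC replicate 1, and 0.0981 CPM in the deepest, tcESC replicate 2. Among their near copies, Hsd3b3 had 0 counts throughout and Hsd3b2 had 3 and 11 in SCLCs and at most 1 elsewhere. Hsd3b7, a family member that acts in bile acid rather than sex steroid synthesis, was well measured at 387 to 1023 counts.

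Cyp17a1, whose enzyme makes androgens from progestogens, was detected above the floor in SCLCs alone. It had 0 and 1 counts in tcESCs, 1 and 1 in tc;Sf1ESCs, 35 and 56 in SCLCs (1.38 and 1.99 CPM) and 0 and 0 in todPGCLCs. Both SCLC libraries were far above the other 6, at a mean of 0.609 ± 0.155 RPKM (SD, n = 2), which is below the SCLC means of Star (1.72 RPKM), Fdx1 (4.40 RPKM), Fdxr (5.44 RPKM) and Por (28.2 RPKM). The scaled ratio of summed counts was 94.6 against the 1 count of tcESCs (95% exact counting interval 16.6 to 3777) and 45.4 against the 2 counts of tc;Sf1ESCs (12.2 to 380). Against todPGCLCs, which had none, the mean SCLC level was at least 16.1-fold higher when todPGCLCs are set at 3 counts per library.

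Cyp17a1 passed the minimum count for testing only through the SCLC libraries, where it is high, so its calls and the counts that include it are given as a description. It was the 1 gene of the 6 tested that was called between SCLCs and tcESCs (edgeR adjusted p = 0.000108), where 42.7% of all genes were called. With Star it was 1 of 2 called between SCLCs and tc;Sf1ESCs (adjusted p = 0.000148), where the share over all genes was 42.2%. Between SCLCs and todPGCLCs it was the 1 gene called of 5 tested (adjusted p = 5.97e-05), beside 38.0% of all genes. None of the 5 was called between todPGCLCs and tcESCs, where 29.4% of all genes were. In that comparison 1 of the 5, Fdx1, had an unadjusted and an adjusted p under 0.05, and DESeq2 called none either. Without SCLC replicate 2, the counts of Cyp17a1 fell below the minimum for testing and no gene was called against tcESCs. The same held against todPGCLCs without either SCLC library. When every gene with a count was tested, so that no minimum applied, Cyp17a1 was called in the same 3 comparisons with edgeR and with DESeq2.

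Counted by the adjusted p alone, at any fold change, 4 of the 6 differed between SCLCs and tcESCs (72.9% of all genes did), 5 of the 6 between SCLCs and tc;Sf1ESCs (72.6%), 1 of the 5 between todPGCLCs and tcESCs (62.0%) and 3 of the 5 between SCLCs and todPGCLCs (69.7%). The plot of log2 differences gives all of them with their intervals.

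**Figure D3:**
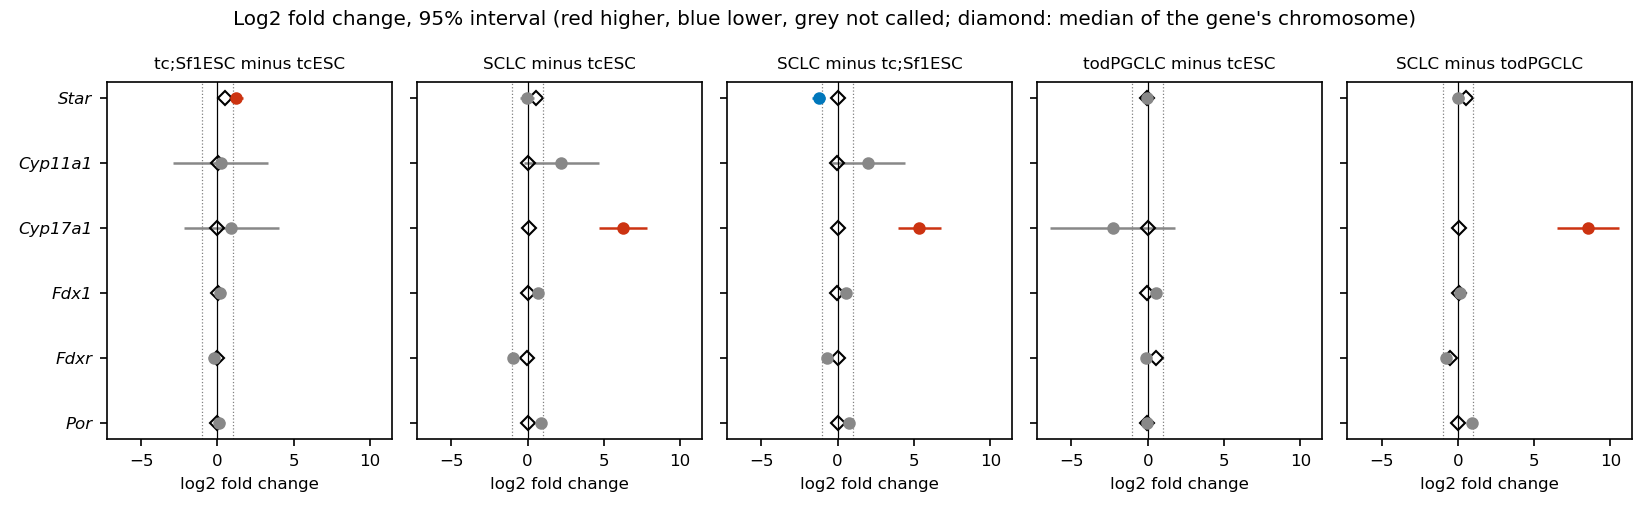
Log2 difference with its 95% interval for the genes tested in each of the 5 comparisons (red called higher, blue called lower, grey not called). Diamonds are the median of all genes tested on the same chromosome, and dotted lines mark 2-fold. The widest intervals are those of Cyp11a1 and Cyp17a1, and Star is called higher in tc;Sf1ESCs and lower in SCLCs than in tc;Sf1ESCs.

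Por, the reductase that supplies CYP17A1, aromatase and other microsomal enzymes, was the most abundant of the 10 per length in every library. It had 1536 and 1991 counts in tcESCs (61.5 and 65.1 CPM), 1654 and 1926 in tc;Sf1ESCs (64.1 and 70.1 CPM), 2749 and 3333 in SCLCs (109 and 119 CPM) and 1705 and 1760 in todPGCLCs (58.4 and 62.7 CPM). The SCLC libraries were the highest. The tcESC range overlapped those of tc;Sf1ESCs and todPGCLCs, which did not overlap each other. Por rose in SCLCs by 0.86 log2 against tcESCs (1.82-fold, SE 0.0838, edgeR adjusted p = 7.10e-05), by 0.76 against tc;Sf1ESCs (SE 0.0836, adjusted p = 0.000136) and by 0.90 against todPGCLCs (SE 0.0841, adjusted p = 1.82e-05). The difference was under 2-fold in each. tc;Sf1ESCs differed from tcESCs by 0.10 (95% interval -0.10 to 0.30) and todPGCLCs by -0.04 (-0.23 to 0.15).

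Hsd17b3 and Cyp19a1, the enzymes that make testosterone and oestrogen, stayed at a few counts. Hsd17b3 had 1 and 1 counts in tcESCs, 2 and 5 in tc;Sf1ESCs, 0 and 0 in SCLCs and 3 and 5 in todPGCLCs. The SCLC libraries, where a count of 0 allows up to 0.119 and 0.107 CPM, were the only ones without a read, and the highest library of any group was at 0.182 CPM. When every gene with a count was tested, SCLCs differed from todPGCLCs with an adjusted p of 0.0422 in edgeR, and DESeq2 on the same genes gave an unadjusted p of 0.0667. Cyp19a1 had 0 and 1 counts in tcESCs, 0 and 0 in tc;Sf1ESCs, 0 and 2 in SCLCs and 1 and 2 in todPGCLCs. Differences between groups in Cyp19a1 were not detectable at this depth.

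Other enzymes and carriers of the steroid pathway were taken from a list of 38 genes, of which 36 were in the files and 24 were tested in the comparisons among ESCs and SCLCs. Between tc;Sf1ESCs and tcESCs, 2 were called higher, 1 lower and 21 not, where 6.04% of all genes were called higher and 5.62% lower. The 2 were Akr1c18, a 20-alpha-hydroxysteroid dehydrogenase that inactivates progesterone, and Hsd17b2, which oxidises testosterone and oestradiol to weaker forms. Akr1c18 had 1 and 5 counts in tcESCs, 109 and 107 in tc;Sf1ESCs, 0 and 0 in SCLCs and 1 and 0 in todPGCLCs. It passed the minimum count for testing only through tc;Sf1ESCs, where it is high, and so did Stard6, the gene called lower, through tcESCs. Values of such genes are a description, with no test, and Hsd17b2 was the 1 call of the 3 that did not depend on this. The fitted log2 difference of Akr1c18 was 5.20, and SCLCs, set at 3 counts per library, were at least 36.0-fold lower than tc;Sf1ESCs. Hsd17b2 had 6 and 15, 105 and 104, 21 and 74, and 8 and 4 counts in the same order of groups, and was 3.39 log2 higher in tc;Sf1ESCs than in tcESCs (SE 0.587, adjusted p = 0.00503). It lies on chromosome 8, as Star does, and 11 of the 864 genes tested there had a larger difference.

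In SCLCs, 6 of the 24 were higher than in tcESCs, 3 lower and 15 not called, where 24.3% of all genes were called higher and 18.3% lower. The median log2 difference of the 24 was 0.10, beside 0.05 over all genes. Hsd11b2, which inactivates glucocorticoids, had 5 and 3 counts in tcESCs and 59 and 145 in SCLCs (fitted log2 difference 4.68). It passed the minimum count only through SCLCs, which leaves 5 of the 6 called higher, and Stard6 only through tcESCs. Stard4, a soluble cholesterol carrier related to STAR, rose from 79.7 and 73.6 CPM to 313 and 294 CPM, a log2 difference of 2.01 (SE 0.0657, adjusted p = 5.53e-07). Hsd17b2 was 2.23 higher (SE 0.621, adjusted p = 0.0138). Vdac1, a channel of the outer mitochondrial membrane, fell by 1.22 (SE 0.0578, adjusted p = 2.38e-06), and Akr1c18 was among the 3 called lower. It passed the minimum count only through tc;Sf1ESCs, and its counts in the groups compared here, 1 and 5 against 0 and 0, lie near the floor. Stard4 thus went up in SCLCs while Star did not pass the test, although the difference between these changes was not itself tested. The plot of the 24 genes shows both comparisons.

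**Figure D4:**
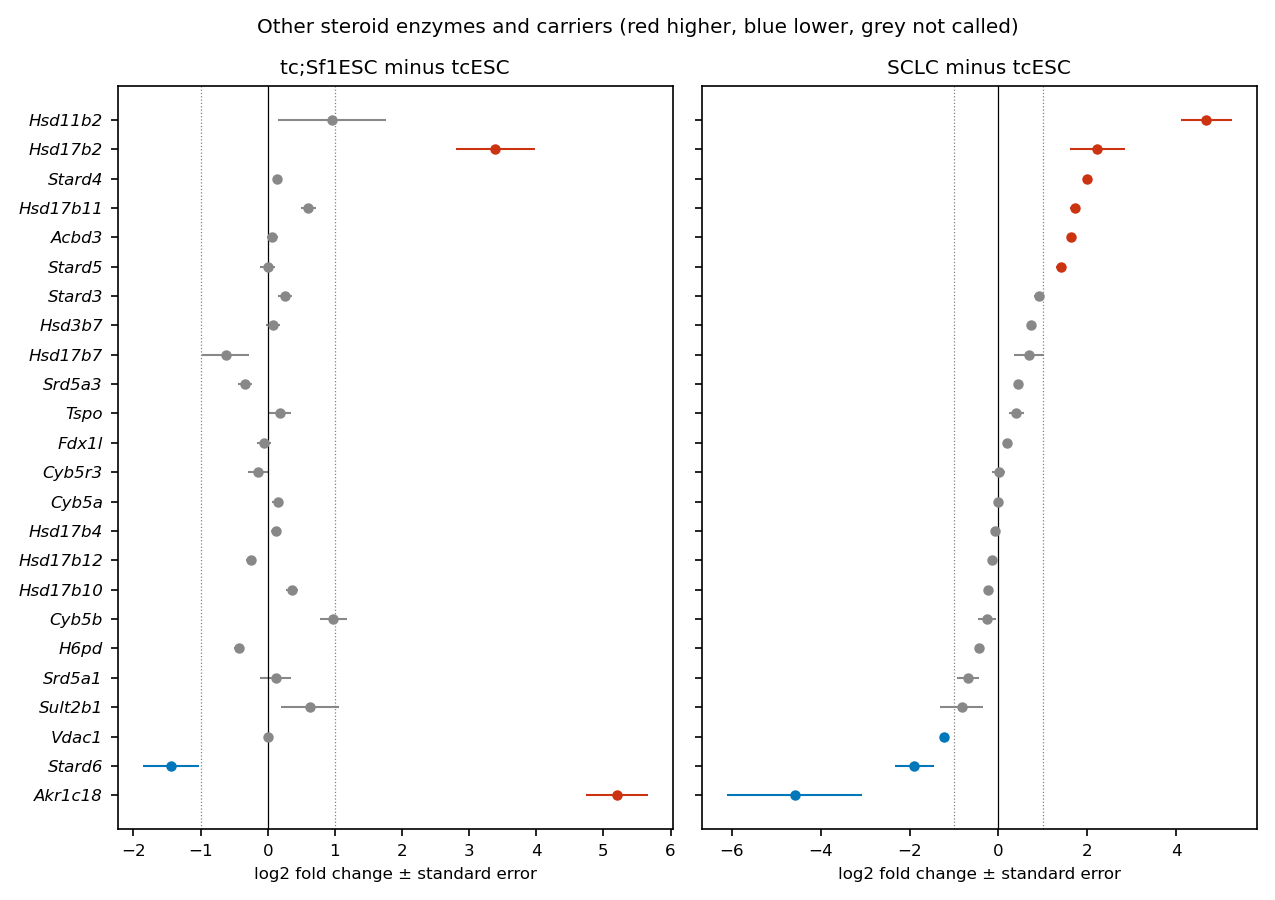
Log2 difference with its standard error for the 24 tested genes of the list of other steroid enzymes and carriers, between tc;Sf1ESCs and tcESCs (left) and SCLCs and tcESCs (right), ordered by the values on the right. Akr1c18 and Hsd17b2 are the 2 genes called higher on the left, and Hsd11b2 is at the top on the right.

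Between SCLCs and tc;Sf1ESCs, 6 of the 24 were higher and 4 lower, beside 24.1% and 18.1% of all genes. Stard4 was 1.87 higher (SE 0.0654). Of these, Hsd11b2, at a fitted 3.72, and Akr1c18 again passed the minimum only through the group where they are high. Vdac1 was again at -1.22 (SE 0.0578). Acbd3, a Golgi protein that binds TSPO, was 1.57 higher (SE 0.0778, adjusted p = 2.78e-06), and Cyb5b, an outer mitochondrial membrane cytochrome b5, was 1.23 lower on the log2 scale (log2 difference -1.23, SE 0.206, adjusted p = 0.00121). In todPGCLCs against tcESCs, 2 of 25 tested were higher and 2 lower, beside 18.1% and 11.2% of all genes, with Hsd17b1 of the higher passing the minimum only through todPGCLCs. The calls included Hsd11b2 at 3.84 (SE 0.577, adjusted p = 0.000463) and H6pd, which supplies NADPH in the endoplasmic reticulum, at -1.19 (SE 0.0961, adjusted p = 1.39e-05), with the cytochrome b5 reductase Cyb5r3 at -1.23 (SE 0.137). Between SCLCs and todPGCLCs, 6 of the 25 were higher, among them Hsd17b2, Hsd17b11 and Stard4 at 3.03, 2.39 and 1.80 (SE 0.654, 0.151 and 0.0645), and 2 were lower, among them the sterol sulphotransferase Sult2b1 at -1.67 (SE 0.429). Over all genes 19.5% were higher and 18.5% lower there. The adrenal enzymes Cyp11b1 and Cyp11b2 had 0 counts in all 8 libraries, and Cyp21a1 at most 5.

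Regulators and hormone receptors of steroidogenic cells were read from a list of 22 genes, of which 15 were tested. Over all genes the shares higher and lower were 6.04% and 5.62% between tc;Sf1ESCs and tcESCs, 24.3% and 18.3% in SCLCs against tcESCs, 24.1% and 18.1% in SCLCs against tc;Sf1ESCs, 18.1% and 11.2% between todPGCLCs and tcESCs, and 19.5% and 18.5% between SCLCs and todPGCLCs. In SCLCs 6 were higher and 5 lower than in tcESCs. Gata4 and Gata6, transcription factors of gonadal and endodermal cells, were 7.71 and 8.49 log2 higher (SE 0.107 and 0.276), while Nr0b1 and Nr5a2, nuclear receptors that ESCs express, were at -5.28 and -4.03 (SE 0.118 and 0.219). The edgeR adjusted p was at most 4.20e-06 for these 4. Between tc;Sf1ESCs and tcESCs, Nr5a1, Gata4 and Gata6 were called higher, the GATA factors by 1.66 and 1.44 (SE 0.119 and 0.434), and Cebpb lower, at -1.08 (SE 0.315). Between SCLCs and tc;Sf1ESCs 6 were higher and 5 lower, among them Gata6 and Gata4 at 7.06 and 6.05 and Nr0b1 and Nr5a2 at -4.60 and -3.95 (SE 0.0944 to 0.244). Inha, the inhibin alpha subunit, had 210 and 270 counts in SCLCs and 5 to 10 in the ESC libraries (fitted difference 4.71). It passed the minimum only through SCLCs, so 5 of the 6 higher in each of the SCLC comparisons with ESCs did not depend on this. In todPGCLCs against tcESCs 4 were higher and none lower, with Gata6 at 3.27, Inha at 2.75 (SE 0.322 and 0.339) and Nr5a1, at 6 and 5 counts, at a ratio of 10.7 to the 1 count of tcESCs (95% exact counting interval 1.55 to 459). Nr5a1 passed the minimum only through groups not compared there. It was not called in edgeR with replicate number as a block (adjusted p = 0.0598) or against a 2-fold change (adjusted p = 0.177). DESeq2 on every gene with a count did not call it either (adjusted p = 0.0518). Leaving out 1 library, its log2 difference ranged from 2.13 to 5.44. Between SCLCs and todPGCLCs 5 were higher, Gata4, Nr5a1 and Gata6 among them at 6.72, 6.37 and 5.22, and 3 were lower, among them Nr0b1 and Nr5a2 at -4.66 and -3.21 (SE 0.119 to 0.428). The gonadotropin and corticotropin receptors that drive steroid synthesis in tissues were absent or nearly so, with 0 counts of Lhcgr in all libraries, at most 1 of Fshr and at most 1 of Mc2r.

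A list of 17 other genes that take electrons from POR or FDX1, or build the iron-sulphur cluster of FDX1, had 16 tested. In SCLCs 6 were higher than in tcESCs and 1 lower, where over all genes 24.3% were higher and 18.3% lower. The shares over all genes in the other comparisons are those given with the regulators. Cyp26a1, which degrades retinoic acid, had 13 and 18 counts in tcESCs, 4 and 4 in tc;Sf1ESCs and 4448 and 4217 in SCLCs, and passed the minimum for the comparisons among these groups only through SCLCs. Its fitted log2 differences are given there as a description (8.20 in SCLCs against tcESCs), which leaves 5 of the 6 called higher. The sterol 27-hydroxylase Cyp27a1 was 4.81 higher (SE 0.305, adjusted p = 8.59e-06), and the cytochrome P450 gene Cyp2s1 2.72 higher (SE 0.186). Cyp1a1, an aryl hydrocarbon receptor target, had 845 and 1054 counts in tcESCs and 1 and 3 in SCLCs, a ratio of 457 (95% exact counting interval 178 to 1678). Between tc;Sf1ESCs and tcESCs 2 of the 16 were higher and 1 lower, with Cyp1a1 at 1.37 (SE 0.0877, adjusted p = 0.000127), its relative Cyp1b1 at 1.90 (SE 0.293) and, as the 1 lower, Cyp26a1 at a fitted -1.84. Between SCLCs and tc;Sf1ESCs 5 were higher, 4 of them without Cyp26a1 at a fitted 10.04, with Cyp27a1 and the related Cyp26b1 at 4.13 and 3.56, and 2 were lower, Cyp1b1 at -1.25 (SE 0.283 to 0.342) and Cyp1a1 by a ratio of 1163 (95% exact counting interval 454 to 4271). In todPGCLCs against tcESCs 5 were higher, with Cyp26a1, Cyp1b1 and Cyp27a1 at 5.06, 2.15 and 1.96, and 3 lower, with Cyp1a1 and Cyp2s1 at -4.44 and -1.61 (SE 0.291 to 0.784). Between SCLCs and todPGCLCs 6 were higher, with Cyp2s1, Cyp26a1 and Cyp27a1 at 4.33, 3.13 and 2.84 (SE 0.249 to 0.495), and 2 lower, Cyp1b1 at -1.499 (SE 0.320) and Cyp1a1 by a ratio of 20.5 (7.74 to 77.02).

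Marker lists of cell types that make steroids, or that could be mixed into the sorts, were summed in each library, and their sums in SCLCs were higher for some lists and lower for others. The summed level of 12 Leydig cell markers without the genes described here was 791 and 918 CPM in SCLCs and 7.01 to 10.3 CPM in the other 6 libraries. Of the SCLC sums 770 and 902 CPM were Pdgfra, which many mesenchymal and endodermal cells express. The Leydig hormone Insl3 was lower in SCLCs, at 0.790 and 1.21 CPM, than in tcESCs, at 1.88 and 2.36 CPM, and Lhcgr was at 0. The 12 visceral endoderm and liver markers summed to 1897 and 3397 CPM in SCLCs and 8.80 to 36.5 CPM elsewhere, with Cubn at 27982 and 61312 counts beside 12 and 16 in tcESCs. Of the 10 tested, all called higher than in tcESCs, Ttr, Apoa1, Afp and Foxa2 passed the minimum only through SCLCs, which leaves 6. The other 2 stayed at the floor, Alb with 1 and 1 counts in SCLCs and Trf with 1 and 2, fewer than its 5 and 3 in tcESCs. The 10 genes of the list named trophoblast giant cell markers, which also holds genes of other trophoblast such as Tpbpa, Ascl2 and Gcm1, summed, without Hsd3b6 and Cyp11a1, to 44.1 and 89.5 CPM in SCLCs and 1.89 to 11.2 CPM elsewhere, of which Tpbpa made up 36.6 and 76.6 CPM. Tpbpa had 927 and 2155 counts in SCLCs and 0 in all other libraries. Ascl2 did not follow, at 2.85 and 5.76 CPM in SCLCs beside 5.97 and 7.03 CPM in tcESCs, and Gcm1 was highest in todPGCLCs, at 84 and 86 counts beside 10 and 17 in SCLCs. Prl3d1, a defining giant cell hormone, had 0 and 1 counts in SCLCs. Other genes of the list rose. Summed counts in SCLCs were 66 for Ctsq, 12 for Prl2c2 and 10 for Prl3b1, with none in the other groups. Hand1 had 201 in SCLCs, beside 6 in tcESCs, 1 in tc;Sf1ESCs and 89 in todPGCLCs. Ctsq and Hand1, like Tpbpa, passed the minimum for the comparisons with ESCs only through SCLCs. SCLC replicate 2, the library with 37 counts of Cyp11a1 and the higher count of Cyp17a1, was also the higher for the endoderm, trophoblast, Leydig, Sertoli and adrenal cortex sums, and the lower for the granulosa, pluripotency and germ cell sums. The part that these cells have in the values of Cyp17a1, Cyp11a1, Fdx1, Fdxr and Por was not tested, and in bulk libraries fewer cells of a type and less RNA per cell cannot be told apart.

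Sertoli cell markers summed, without Hsd17b3, to 509 and 538 CPM in SCLCs and 12.4 to 62.7 CPM elsewhere. Gata4 made up 435 and 446 CPM of these sums. Vnn1 followed, at 1091 and 1798 counts beside 35 and 61 in tcESCs (log2 difference 4.98, SE 0.266, edgeR adjusted p = 3.89e-06). Wt1 and Aard were highest in todPGCLCs, Wt1 at 11.4 and 10.4 CPM beside 2.37 and 0.818 CPM in SCLCs and Aard at 42.8 and 35.8 CPM beside 6.09 and 1.71 CPM in SCLCs and 7.41 and 8.54 CPM in tcESCs. Sox9 had 206 and 130 counts beside 2 and 8 in tcESCs, whereas Amh was at 10 and 22 counts beside 15 and 18 in tcESCs, Dhh at 5 and 1 beside 5 and 7, and Fshr at 0. The name SCLC is used here as the label of the sort. Granulosa markers summed, without Cyp19a1, to 133 and 112 CPM in SCLCs and 13.3 to 34.2 CPM elsewhere. Fst made up 95.2 and 70.3 CPM and Bmp2 33.1 and 35.8 CPM of the SCLC sums, while Foxl2 was at 8 and 6 counts in SCLCs and Rspo1 at 18 and 39 beside 64 and 73 in tcESCs. Wnt4 and Inhba had 164 and 37 summed counts in SCLCs beside 11 and 0 in tcESCs, with Wnt4 passing the minimum only through SCLCs. Adrenal cortex markers without the genes described here were lower in SCLCs, at 17.5 and 22.7 CPM, than elsewhere, at 76.6 to 131 CPM. Nr0b1 was the main part of them in ESCs, at a mean of 125 CPM in tcESCs beside 3.18 CPM in SCLCs. Nr5a1, the gene of the transgene, made up 13.5 and 19.0 CPM of the SCLC sums. Mrap, Akr1b7 and Cyp21a1 had 20, 10 and 6 summed counts in SCLCs beside 1, 1 and 0 in tcESCs. In todPGCLCs they had 4, 12 and 3. Pluripotency markers summed to 677 and 914 CPM in SCLCs, 2652 and 2687 CPM in todPGCLCs and 3832 to 4367 CPM in the ESC groups. Germ cell markers summed to 987 and 996 CPM in todPGCLCs and 426 to 586 CPM elsewhere, with Prdm1, the reporter's gene, at 168 and 183 CPM and Ddx4 at 30.3 and 28.2 CPM beside 30.5 and 24.8 CPM in SCLCs. The plot of marker sums gives all lists.

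**Figure D5:**
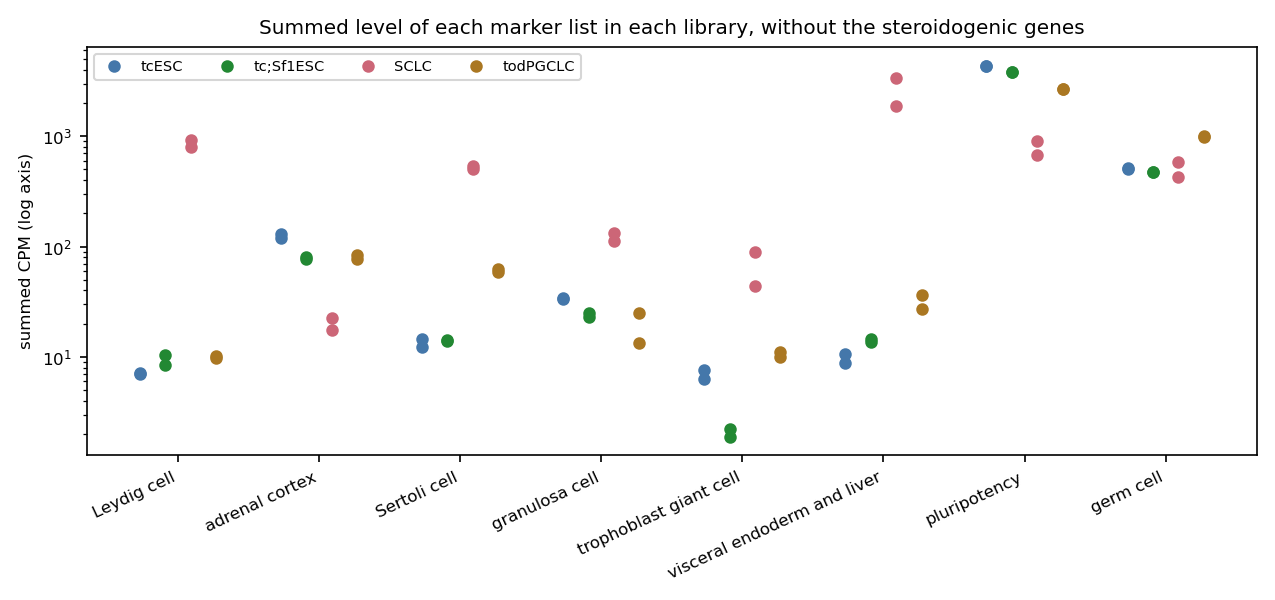
Summed CPM of each marker list in each of the 8 libraries on a log axis, without the 10 steroidogenic genes. The SCLC libraries are the highest for the Leydig, Sertoli, granulosa, trophoblast giant cell and endoderm lists and the lowest for the adrenal cortex and pluripotency lists.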

How the data were processed

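RNA-seq libraries (8, in 4 groups of 2) were aligned to GRCm38 with STAR 2.4.0 after Trim Galore and counted with HTSeq, per the submitters' notes, which also name Picard and DESeq2. The counting options are not given in the sources used here. The deposited values are raw counts per Ensembl gene, 1 file per library. Rows that name no gene held 35.6% to 41.6% of reads and were left out. Gene names and exon lengths were taken from GENCODE M21 (45229 of 46078 IDs matched). The genes and lists were chosen with earlier results of these data known.

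Counts were tested with edgeR 4.0.16 in R 4.3.3 (TMM, quasi-likelihood, Benjamini-Hochberg) on genes with a mean count over 10, in a fit of the 6 ESC and SCLC libraries or, for comparisons with todPGCLCs, of all 8. A gene was called at over 2-fold and an adjusted p under 0.05. The fit was tested on simulated counts. For fold bounds a group without a count was set to 3 counts per library, while groups with 1 or a few counts were given a ratio with an exact binomial interval, in place of the bound first planned. From each list up to 3 genes called higher and 3 called lower in a comparison, with the largest fold, a mean of at least 1 CPM and no overlap between groups, were named, except 1 that is not reported here. Other list genes were named for their role. Alternatives included DESeq2 1.42.0 (also, added after seeing the data, on every gene with a count), other scaling and filters, edgeR's test against 2-fold, a replicate block and leaving out each library. Replicate numbers come from the labels and were not used to pair samples in the main fits. Deviations of same-numbered libraries correlated at -0.0259 to 0.0624, which with 2 libraries per group cannot exclude pairing.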

Additional observations from a re-analysis of the deposited data

How the results depend on the processing

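Cyp19a1, Hsd3b1 and Hsd3b6 had no more than 2 counts in any library. No difference was called for them when every gene with a count was tested with edgeR or DESeq2. Testing every gene with at least 1 count gave 2 of the steroidogenic genes called between SCLCs and tcESCs, where Cyp11a1 joined Cyp17a1, 3 when SCLCs were set against tc;Sf1ESCs, again with Cyp11a1 (log2 difference 1.99, adjusted p = 0.00256), and 3 between SCLCs and todPGCLCs, whereas DESeq2 on the same genes called 1, 2 and 1 and Cyp11a1 in none of them. In edgeR's test against a 2-fold change, 0 were called between tc;Sf1ESCs and tcESCs, 1 when SCLCs were set against tc;Sf1ESCs, and the counts over all genes were 594 between tc;Sf1ESCs and tcESCs and 3078 between todPGCLCs and tcESCs. The same test called 6, 1 and 5 other steroid enzymes and carriers (SCLCs against tc;Sf1ESCs, todPGCLCs against tcESCs, SCLCs against todPGCLCs), 2 and 2 regulators (tc;Sf1ESCs and todPGCLCs against tcESCs) and 1 and 5 electron users (tc;Sf1ESCs against tcESCs, SCLCs against todPGCLCs). Leaving out 1 library gave 0 to 2 steroidogenic genes called between SCLCs and tcESCs, 1 to 2 when SCLCs were set against tc;Sf1ESCs and 0 to 1 between SCLCs and todPGCLCs, with the lowest values without SCLC replicate 2 or, for todPGCLCs, without either SCLC library, since Cyp17a1 then had too few counts to be tested. Between tc;Sf1ESCs and tcESCs it gave 1119 to 2304 genes, 1 to 3 steroid enzymes and carriers and 2 to 4 regulators.

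The sign turned only where the difference did not pass the test. With library totals alone it was 0.032 for Por and 0.031 for Star between todPGCLCs and tcESCs and -0.13 for Star between SCLCs and todPGCLCs, where edgeR's own count filter gave -0.013 and the 4 libraries alone -0.0050. Leaving out 1 library, the log2 difference of Cyp11a1 between tc;Sf1ESCs and tcESCs ranged from -0.73 to 2.38, that of Star between SCLCs and tcESCs from -0.33 to 0.22 and between SCLCs and todPGCLCs from -0.28 to 0.25, and those of Star and Por between todPGCLCs and tcESCs from -0.10 to 0.015 and from -0.13 to 0.013. The cause was not tested. With the replicate block, Star between SCLCs and todPGCLCs was at -0.0017, and the counts of steroidogenic genes called were 1, 1, 2, 0 and 1 (tc;Sf1ESCs and SCLCs against tcESCs, SCLCs against tc;Sf1ESCs, todPGCLCs against tcESCs, SCLCs against todPGCLCs), the same counts as without it. Of the alternatives for single genes, 493 kept direction and call, 13 turned in sign, 10 lost a call and 4 gained one. Of the 40 group levels, 35 moved by less than 1 SD with library totals and 5 by more.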
